A study of Mus musculus with 2 samples.

Results

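The m6A sites of 5 genes of the neurotrophin system were examined. They were the ligand genes *Bdnf* and *Ntf3*, and the receptor genes *Ngfr*, *Ntrk2* and *Ntrk3*. Counted were all listed sites that lay inside the GENCODE M21 interval of each gene on its strand, in either of 2 GLORI libraries. In all, 318 of 219409 listed sites met this rule, 126 of 79355 in the cerebellum library and 271 of 188295 in the cerebrum library. In GLORI, glyoxal and nitrite deaminate adenosines that lack the methyl group, which sequencing then shows as G, whereas a base that stays A marks m6A. There was 1 library per tissue, each made from poly(A)+ RNA of a female mouse at postnatal day 0 (P0). Both came from the F1r hybrid, which has a C57BL/6J (C57) mother and a PWK/PhJ (PWK) father. The labels do not say whether both tissues came from the same animal, and the study's methods speak of a single mouse.

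Neurotrophins are secreted growth factors that guide the survival, growth and synaptic function of neurons. Each mature ligand binds a Trk receptor tyrosine kinase, BDNF to TrkB (encoded by *Ntrk2*) and NT-3 chiefly to TrkC (encoded by *Ntrk3*), while all neurotrophins and their precursors bind the p75 receptor (encoded by *Ngfr*). *Ntrk2* and *Ntrk3* each give rise to full-length transcripts that encode the intracellular kinase and to truncated transcripts that end upstream in a last exon of their own and encode no kinase. Truncated TrkB.T1 is the main TrkB form of astrocytes, and *Bdnf* is known for transcripts with short and long 3′ UTRs. m6A is placed mostly at adenosines in the DRACH context (D is A, G or T, R is A or G, and H is A, C or T), often near stop codons, in 3′ UTRs and in long internal exons.

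The files list positions without methylation rates or read counts, so the depth behind each site is unknown. A site that is not listed can be unmethylated, thinly covered or not expressed, and in bulk tissue fewer cells of a type and less RNA per cell cannot be told apart. The called share below is the percentage of DRACH adenosines in annotated exons that were listed as sites. Its 95% Wilson intervals cover counting error only and treat neighbouring adenosines as independent. Since each tissue had a single library, no replicate error can be given, and the tissues were not tested against each other. The tissue labels were checked against marker genes: of 9 forebrain genes, 9 had a site in the cerebrum and 3 in the cerebellum, with 136 and 8 called DRACH adenosines. Of 8 hindbrain genes, 3 had a site in the cerebellum and 2 in the cerebrum, with 14 and 2 called. *En2*, a transcription factor gene of the midbrain and hindbrain, had 9 cerebellum and 0 cerebrum sites, and *En1* had 6 and 0. The other hindbrain genes did not separate the libraries this way: *Gbx2* had 3 and 3 sites and *Lmx1a* 0 and 1. *Atoh1*, *Hoxa2*, *Hoxb2* and *Pax2* had 0 in both.

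The receptor genes *Ntrk2* and *Ntrk3* held most of the sites, and the ligand genes and *Ngfr* held few. *Ntrk3* had 74 cerebellum and 159 cerebrum sites, and *Ntrk2* had 46 and 99. *Bdnf* had 6 and 9, *Ngfr* had 0 and 3, and *Ntf3* had 0 and 1. Among coding genes with a site in the cerebrum, *Ntrk3* had more sites than 99.3% and *Ntrk2* more than 98.5%. *Bdnf* had more sites than 57.1%, *Ngfr* more than 24.8%, and *Ntf3*, with a single site, more than 0%. These genes differ in length, so the called share gives the closer comparison.

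In the cerebrum, 41 of 390 exonic DRACH adenosines of *Ntrk2* were called, which is 10.5% (7.84 to 13.95), against a background of 5.4% over all coding genes with a site. In the cerebellum, 32 of 390 were called, 8.21% (5.87 to 11.4), against a background of 4.02%. *Ntrk3* had a called share of 10.6% (8.44 to 13.3) in the cerebrum, 66 of 621, and of 6.60% (4.90 to 8.83) in the cerebellum, 41 of 621. The intervals of both Trk genes lay above the background in both libraries. Against a stricter background, the coding genes with at least 10 sites, they did not: 7.63% and 8.44% were called there, inside these intervals except that of *Ntrk3* in the cerebrum, whose lower end, 8.441%, lay at that background of 8.439%. *Bdnf* had 2 of 138 called in the cerebrum, 1.45% (0.398 to 5.13), and 4 of 138 in the cerebellum, 2.90% (1.13 to 7.22). *Ngfr* had 1 of 75 called in the cerebrum and 0 of 75 in the cerebellum, and *Ntf3* had 1 of 45 and 0 of 45. The intervals of *Ntf3* included the background in each library, and those of *Bdnf* and *Ngfr* did so except for *Bdnf* in the cerebrum, whose upper end lay just below 5.4%. Pooled over the 5 genes, the called share was 6.07% (4.88 to 7.52) in the cerebellum and 8.75% (7.31 to 10.4) in the cerebrum. Among genes with at least 100 DRACH adenosines, *Ntrk2* exceeded 86.1% of 4838 genes in the cerebellum and 84.3% of 6032 in the cerebrum. *Ntrk3* exceeded 81.4% and 84.5%.

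**Figure D1:**
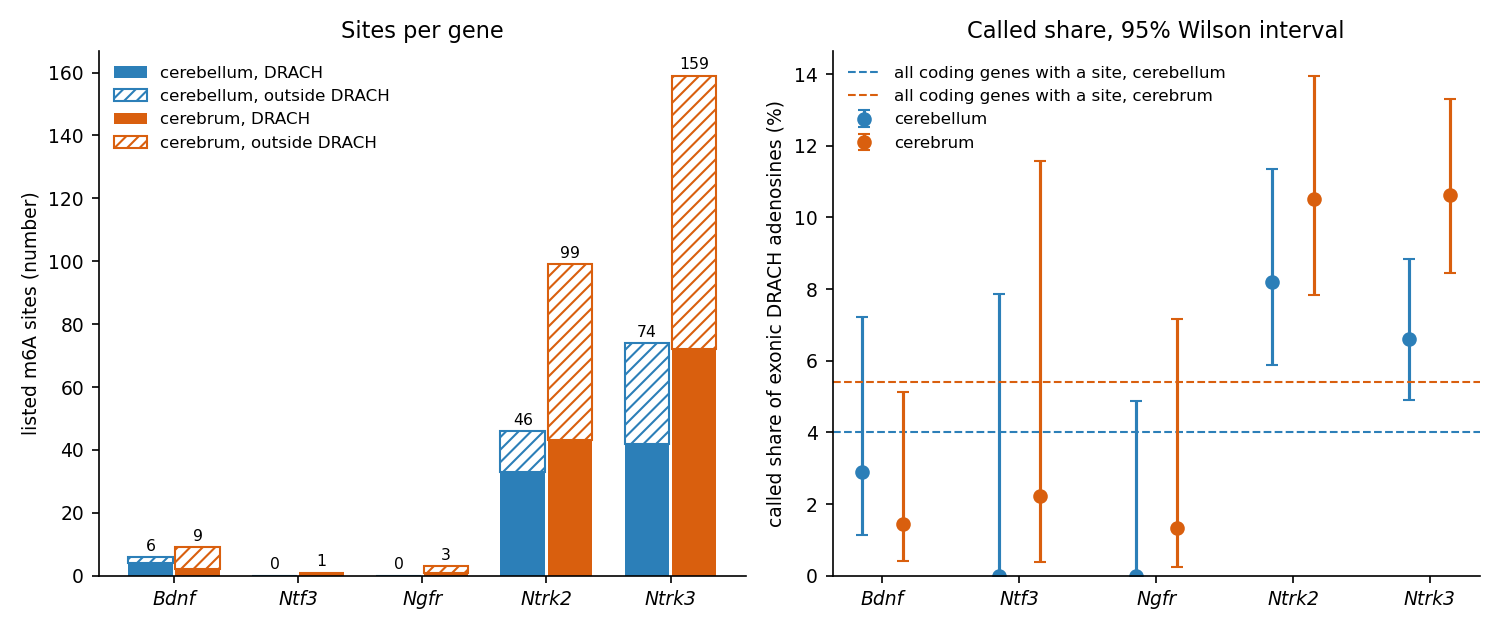
Left, number of listed m6A sites in each gene (bars from 0), in the cerebellum (blue) and cerebrum (orange) libraries, split into DRACH (filled) and other contexts (hatched). Right, called share of exonic DRACH adenosines in percent, with 95% Wilson intervals, and dashed lines for all coding genes with a site (4.02% and 5.4%). *Ntrk2* and *Ntrk3* stand above the dashed lines in both libraries, and the other 3 genes hold between 0 and 9 sites.

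The ligand gene *Bdnf* (chr2:109674700-109727007, + strand, GRCm38, the assembly that mm10 names) carried all of its DRACH sites near the start of its 3′ UTR. Positions in the transcript are counted from 0 at the first base of the 3′ UTR, with negative values in the coding part. The 11 coding transcripts of *Bdnf* share 1 last exon, which holds the whole coding part of the mature ligand and a 3′ UTR of 2855 nt. Of the 18 DRACH adenosines in the first 500 nt of that 3′ UTR, the cerebellum library listed 4 and the cerebrum library 2. Of the 48 beyond, 0 were called in either library (95% interval 0 to 7.41%). Of the 18 in the coding part of the exon, 0 were called (0 to 17.6%). Over all coding genes with a site, 12.9% and 15.8% were called in the first 500 nt. Their bins of 500 nt from 500 to 3000 nt had 2.77 to 6.60% called in the cerebellum and 3.82 to 8.58% in the cerebrum. Their coding sequences had 4.66% and 6.32% called, so counts of 0 among so few adenosines lie near these backgrounds. The DRACH sites at 98 and 154 were listed in both libraries, and those at 322 and 400 in the cerebellum only. They are shown because they are the only DRACH sites of the gene, with the 5-mer around the listed adenosine in capitals:

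Bdnf 98, chr2:109724241-109724261, both libraries: aattttatGAACTgcatgtat
Bdnf 154, chr2:109724297-109724317, both libraries: tatttattGGACAtatccatg
Bdnf 322, chr2:109724465-109724485, cerebellum only: ttgataatAAACTgtccctct
Bdnf 400, chr2:109724543-109724563, cerebellum only: aaaaattgGAACCaaaacatt

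Between the first pair of DRACH sites, 2 further adenosines outside DRACH were listed in both libraries, at 138 and 140. The polyadenylation hexamer AATAAA occurred in this 3′ UTR at 283, 317, 728, 748 and 1041, and its variant ATTAAA at 345, 491 and 2769. The sites listed in both libraries therefore lay upstream of every such hexamer. The cerebellum-only site at 322 was the last base of the AATAAA at 317, and the one at 400 lay between the hexamers at 345 and 491. Which of these hexamers is used cannot be read from a list of positions. Outside DRACH, the cerebrum library listed 5 further adenosines, 1 in a 5′ UTR exon and 4 in the 3′ UTR between 408 and 2586, and 0 of them were listed in the cerebellum. *Bdnf* was the only one of the 3 genes with DRACH sites in both libraries that had fewer of them in the cerebrum, 2 against 4, while over the whole series the cerebrum held 1.79 DRACH sites for each one of the cerebellum.

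*Ntf3* (chr6:126101412-126166910, - strand), which encodes NT-3, had 1 site, in the cerebrum, in its coding sequence at -692. *Ngfr* (chr11:95568818-95587735, - strand), which encodes p75, had 3 sites in the cerebrum, each in the 3′ UTR, at 62, 1641 and 1708, of which the site at 1641 is a DRACH site. Neither gene had a site in the cerebellum. These are the only DRACH sites of both genes:

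Ntf3 coding sequence, chr6:126102407-126102427, cerebrum only: ttgccggaAGACTctctcaat
Ngfr 1641, chr11:95569151-95569171, cerebrum only: atttttatGGACCtcgatctg

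The TrkB gene *Ntrk2* (chr13:58806569-59133970, + strand) gave the sharpest contrast among the 5 genes, between the last exons of its kinase and truncated transcripts. The last exon of the kinase transcript (5803 nt, chr13:59128168-59133970) held 116 DRACH adenosines, of which the cerebellum library listed 30 and the cerebrum library 36. These are called shares of 25.9% (18.8 to 34.5) and 31.0% (23.3 to 39.9). The last exon of the truncated T1 transcript (5005 nt, chr13:58932023-58937027) is of similar length and held 112 DRACH adenosines, of which 1 was called in each library. That is 0.893% (0.158 to 4.88) in each, and the libraries listed different adenosines. The intervals of the kinase and truncated ends did not overlap in either library. Of the 29 DRACH sites of *Ntrk2* listed in both libraries, 28 lay in the kinase last exon, 1 in the 5′ UTR and 0 in the truncated last exon.

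Both ends were rich in DRACH adenosines, and the numbers called stood apart from those that their 5-mers alone would give. When each adenosine was given the share called for its 5-mer and transcript region over all coding genes with a site, 5.95 called adenosines were expected in the kinase last exon in the cerebellum, and 30 were called, a ratio of 5.05. In the cerebrum 7.89 were expected and 36 called, a ratio of 4.57. In the truncated last exon 6.77 and 8.99 were expected and 1 was called in each, ratios of 0.148 and 0.111. These expectations leave out the distance from the stop codon. Over all coding genes with a site, the called share fell from 12.9% and 15.8% in the first 500 nt of the 3′ UTR to 2.56% and 3.70% at 4500 to 5000 nt. The 5-mer GGACT and its variants with A in the first or the second place together occurred 16 times in the truncated last exon and 13 times in the kinase last exon. Of these, 0 and 1 were called in the truncated exon (cerebellum, then cerebrum) and 5 and 5 in the kinase exon. Of 11 AGACA 5-mers in the kinase exon, 7 and 8 were called, whereas 4.52% and 6.19% of AGACA in the 3′ UTRs of all coding genes with a site were called. AGACA was picked after the values were seen, as the 5-mer with the most called adenosines in this exon. Of 8 AGACC, 3 TAACC and 2 GGACT in the same exon, 0 were called in either library. These counts also leave out the distance from the stop codon.

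Outside DRACH, the truncated last exon held 1 listed site in the cerebellum and 8 in the cerebrum, and the kinase last exon held 6 and 9. The reads behind either exon are not given, and the part of coverage in this contrast was not tested. Differences in the abundance of the transcripts were not tested.

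The first 8 of the DRACH sites listed in both libraries in the kinase last exon, in 5′ to 3′ order, lay at -44, 44, 61, 69, 108, 171, 180 and 339. Some of them are shown with the 2 DRACH sites of the truncated last exon, since these exons carry the contrast:

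Ntrk2 kinase -44, chr13:59128300-59128320, both libraries: ctccttcaGAACTtggccaag
Ntrk2 kinase 44, chr13:59128388-59128408, both libraries: ccctcctcAGACTggcctaca
Ntrk2 kinase 69, chr13:59128413-59128433, both libraries: gaacctctTGACTgccgctga
Ntrk2 kinase 180, chr13:59128524-59128544, both libraries: gacagtatTAACTcgcttctg
Ntrk2 kinase 339, chr13:59128683-59128703, both libraries: attcctatTAACTgtacatag
Ntrk2 truncated 347, chr13:58932398-58932418, cerebellum only: aaatgtgcTGACAttaattgc
Ntrk2 truncated 4660, chr13:58936711-58936731, cerebrum only: gcatatatGAACTcacaaaca

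Within the kinase 3′ UTR of *Ntrk2*, the sites were packed into its beginning. GENCODE M21 gives a kinase transcript whose 3′ UTR ends after 1612 nt and another that goes on for 4005 nt more, and an ATTAAA hexamer lies at 1601. In the first 1612 nt, 25 of 46 DRACH adenosines were called in the cerebellum and 31 of 46 in the cerebrum, 54.3% (40.2 to 67.8) and 67.4% (53.0 to 79.1). In the extension, 4 of 67 were called in each library, 5.97% (2.35 to 14.4). Over all coding genes with a site, the bins of 500 nt from 1500 to 6000 nt had 2.42 to 3.93% called in the cerebellum. In the cerebrum they had 3.44 to 5.22%, and both ranges lay inside the interval of the extension. Over both libraries, 32 different DRACH adenosines were called in the first 1612 nt, and the median distance between neighbours was 21 nt. In the first 500 nt alone, 12 of 19 were called in the cerebellum and 15 of 19 in the cerebrum, against 12.9% and 15.8% for all coding genes with a site. From 1500 to 3000 nt, 0 of 26 were called in either library. The bins of all coding genes over this stretch were low too, with 2.77 to 3.93% and 3.82 to 5.22% called. In the first 1000 nt the called share reached 57.6% (40.8 to 72.8) for the cerebellum and 75.8% (59.0 to 87.2) for the cerebrum. It exceeded that of 99.3% of 6124 and 99.8% of 7965 other genes with at least 15 DRACH adenosines in this window. Over the same window the truncated end had 1 of 18 and 0 of 18 called, 5.56% (0.988 to 25.8) and 0% (0 to 17.6). The medians over the other genes, 6.25% and 9.09%, lay inside the intervals of the truncated end. The intervals of the kinase end lay above those of the truncated end in both libraries. One more site of the extension, listed in the cerebellum only at chr13:59132193, lies at a G of GRCm38 and was not counted as a DRACH adenosine of the reference.

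The rest of *Ntrk2* held few DRACH sites. In exons shared by kinase and truncated transcripts, 1 of 43 DRACH adenosines was called in the cerebellum and 4 of 43 in the cerebrum. All of these lay in the 5′ UTR part of exon 2, an internal exon over 400 nt long, where they made up 1 and 4 of 9 adenosines. In the other exons of the kinase transcripts, 0 of 17 were called in either library (95% interval 0 to 18.4%). Exons found only in the other truncated transcripts held 28 DRACH adenosines, of which 0 were called in either library.

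**Figure D2:**
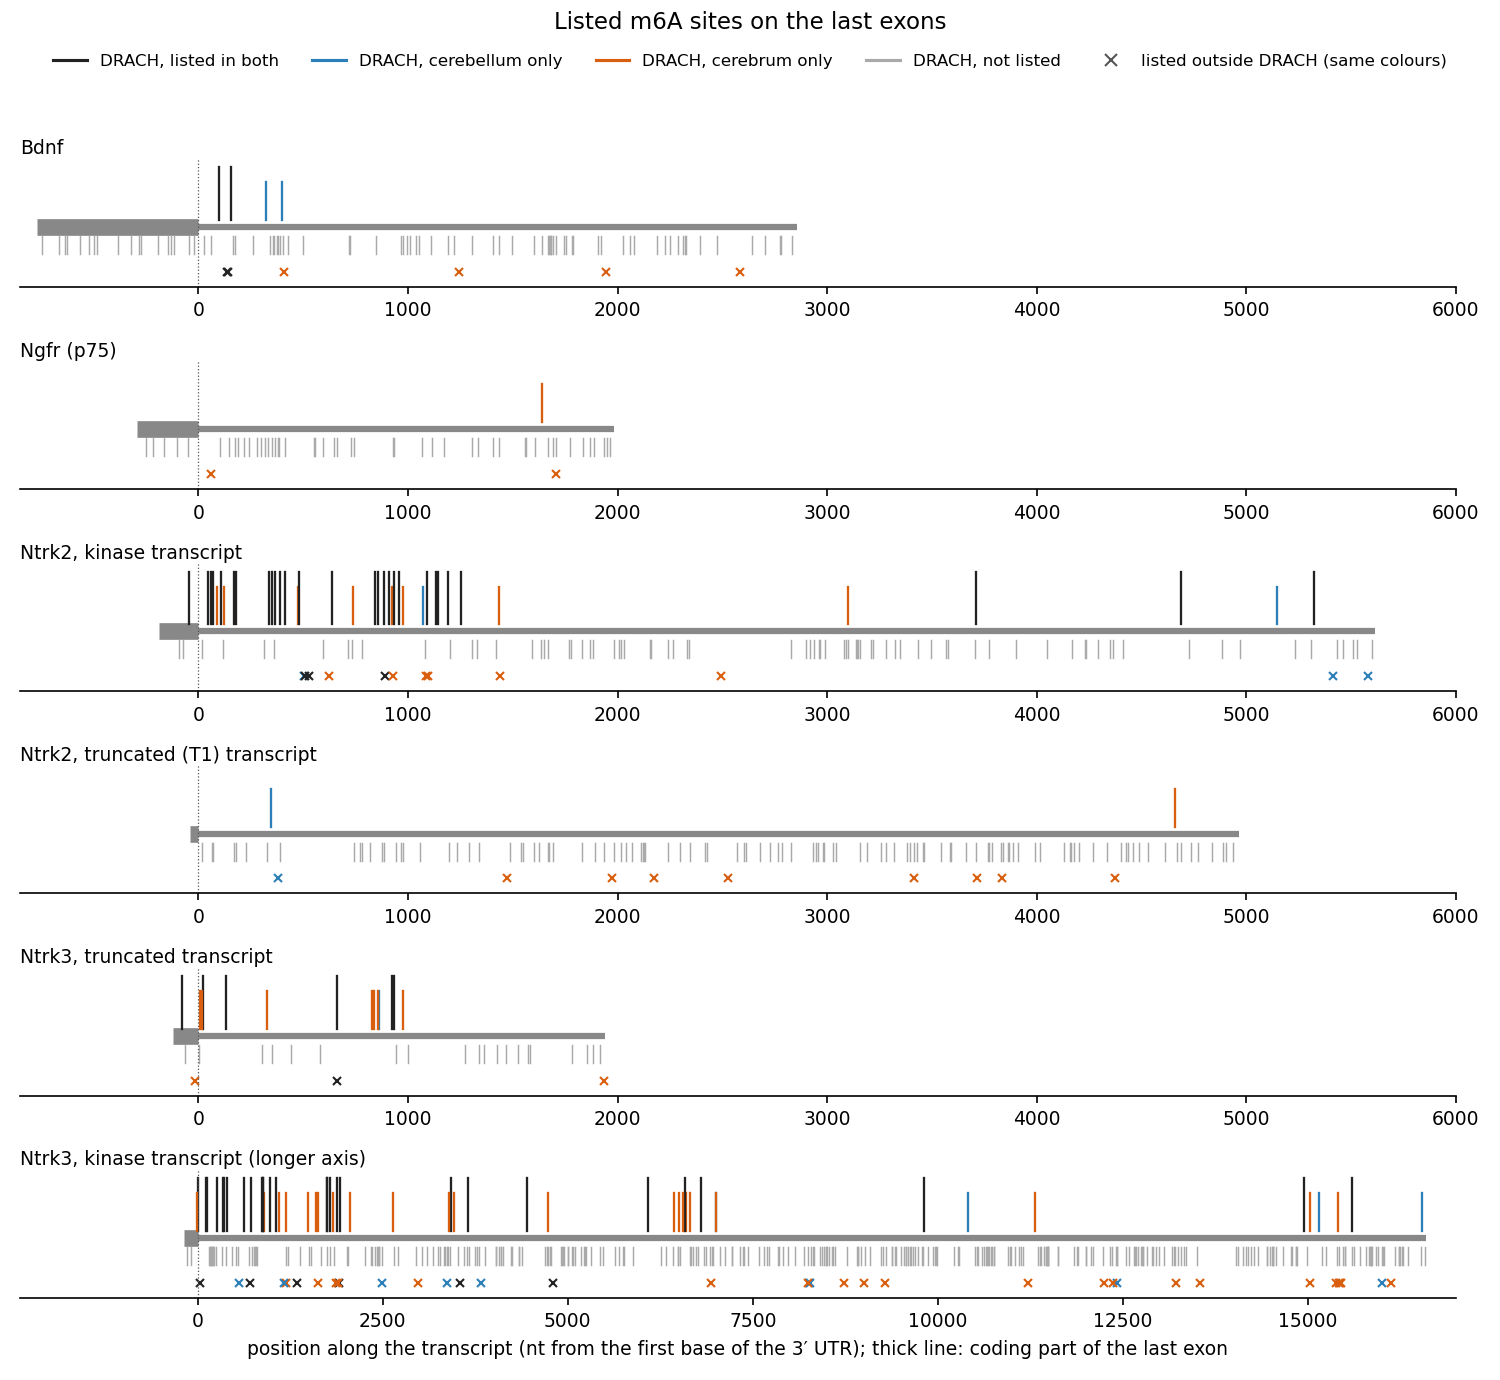
Listed m6A sites along the last exons of *Bdnf*, *Ngfr*, *Ntrk2* and *Ntrk3*, in nt from the first base of the 3′ UTR (thick grey, coding part, and thin grey, 3′ UTR). Upper ticks are DRACH sites listed in both libraries (black, tall), the cerebellum only (blue) or the cerebrum only (orange), lower grey ticks are DRACH adenosines that were not listed, and crosses are listed sites outside DRACH. The lowest panel has a longer axis, and the site at a G of GRCm38 is not drawn. Tall black ticks crowd the first 1612 nt of the *Ntrk2* kinase 3′ UTR, and the truncated *Ntrk2* panel has 2 upper ticks among 112 DRACH adenosines.

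The TrkC gene *Ntrk3* (chr7:78175959-78738012, - strand) carried sites on the last exons of both its kinase and its truncated transcripts. The truncated last exon (2058 nt, chr7:78300690-78302747) held 34 DRACH adenosines, of which the cerebellum library listed 7 and the cerebrum library 13. These are called shares of 20.6% (10.3 to 36.8) and 38.2% (23.9 to 55.0). The kinase last exon (16786 nt, chr7:78175959-78192744) held 360, of which 32 and 50 were called, 8.89% (6.37 to 12.3) and 13.9% (10.7 to 17.8). The direction was thus the opposite of that in *Ntrk2*, with the higher called share in the truncated exon, although the intervals of the exons overlapped in the cerebellum. Relative to the 5-mers, the ratio of called to expected adenosines was 3.81 and 5.31 in the truncated last exon and 1.40 and 1.66 in the kinase last exon. These ratios are not matched for the distance from the stop codon, and the truncated 3′ UTR is 1939 nt long against 16600 nt for the kinase 3′ UTR.

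The called share of the kinase last exon varied along its 3′ UTR, which is 16600 nt long. In its first 2000 nt, 19 of 56 DRACH adenosines were called in the cerebellum and 26 of 56 in the cerebrum, 33.9% (22.9 to 47.0) and 46.4% (34.0 to 59.3). From 2000 to 4000 nt, 2 and 6 of 38 were called, and from 4000 to 8000 nt, 5 and 11 of 81. From 8000 nt to the end, 6 of 182 were called in each library, 3.30% (1.52 to 7.005). For all coding genes with a site, bins of 500 nt up to 2000 nt had 3.93 to 12.9% and 5.22 to 15.8% called. From 2000 to 8000 nt these bins had 1.55 to 3.33% and 2.51 to 4.67% called. From 8000 nt on they had 0 to 5.15% and 1.71 to 6.97% called. Of the truncated 3′ UTR, 6 and 12 of 20 were called in its first 1000 nt and 0 of 12 beyond in either library. Compared over the first 1000 nt alone, the kinase end had 13 and 14 of 35 called, with intervals of 23.2 to 53.7% and 25.6 to 56.4%. The intervals of the truncated end, 14.5 to 51.9% and 38.7 to 78.1%, overlapped these in both libraries. Over this matched length the order of the ends turned in the cerebellum, where the kinase end then had the higher share. The medians over other genes with at least 15 DRACH adenosines in this window, 6.25% and 9.09%, lay below all of these intervals. The kinase end exceeded 94.4% and 91.6% of those genes, and the truncated end 90.4% and 98.3%.

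Of the 35 DRACH sites of *Ntrk3* listed in both libraries, 28 lay in the kinase last exon, 6 in the truncated last exon and 1 in the 5′ UTR. In 5′ to 3′ order, the first 8 of them were the 5′ UTR site, the 6 truncated sites at -79, 22, 130, 660, 924 and 933, and the kinase site at 5. Most of these are shown to set them beside those of *Ntrk2*:

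Ntrk3 5′ UTR, chr7:78578180-78578200, both libraries: aggaggtgGGACTtggtgact
Ntrk3 truncated -79, chr7:78302697-78302717, both libraries: gcctttccGGACAttccaagc
Ntrk3 truncated 22, chr7:78302596-78302616, both libraries: aaaacaaaAAACTccttttaa
Ntrk3 truncated 660, chr7:78301958-78301978, both libraries: ttttttgtGGACAcacttgcc
Ntrk3 truncated 933, chr7:78301685-78301705, both libraries: gactctgaGAACCtttggaac
Ntrk3 kinase 5, chr7:78192543-78192563, both libraries: gctagtggTGACTggtggcca

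The kinase last exons of *Ntrk2* and *Ntrk3* shared 1 stretch of letters at a pair of sites listed in both libraries, which was picked after its values were seen. All 41760 pairs of a DRACH adenosine of one exon and one of the other were aligned on the adenosine and compared over 10 nt on either side. Within this window the longest identical run was 13 nt and occurred in 1 pair, at 481 in *Ntrk2* and 398 in *Ntrk3*. It reached the downstream edge of the window, so 13 nt is a lower bound. Runs of at least 9, 10, 11 and 12 nt occurred in 69, 20, 7 and 2 pairs. Whether a run of 13 nt exceeds what unrelated exons would share was not tested. The next run was 12 nt, between a site of *Ntrk2* listed in both libraries and an adenosine of *Ntrk3* that was not listed. The pair is shown over the compared window:

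Ntrk2 kinase 481, chr13:59128825-59128845, both libraries: caaacatcTGACTtaagctgt
Ntrk3 kinase 398, chr7:78192150-78192170, both libraries: aattccctTGACTtaagctgt

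**Figure D3:**
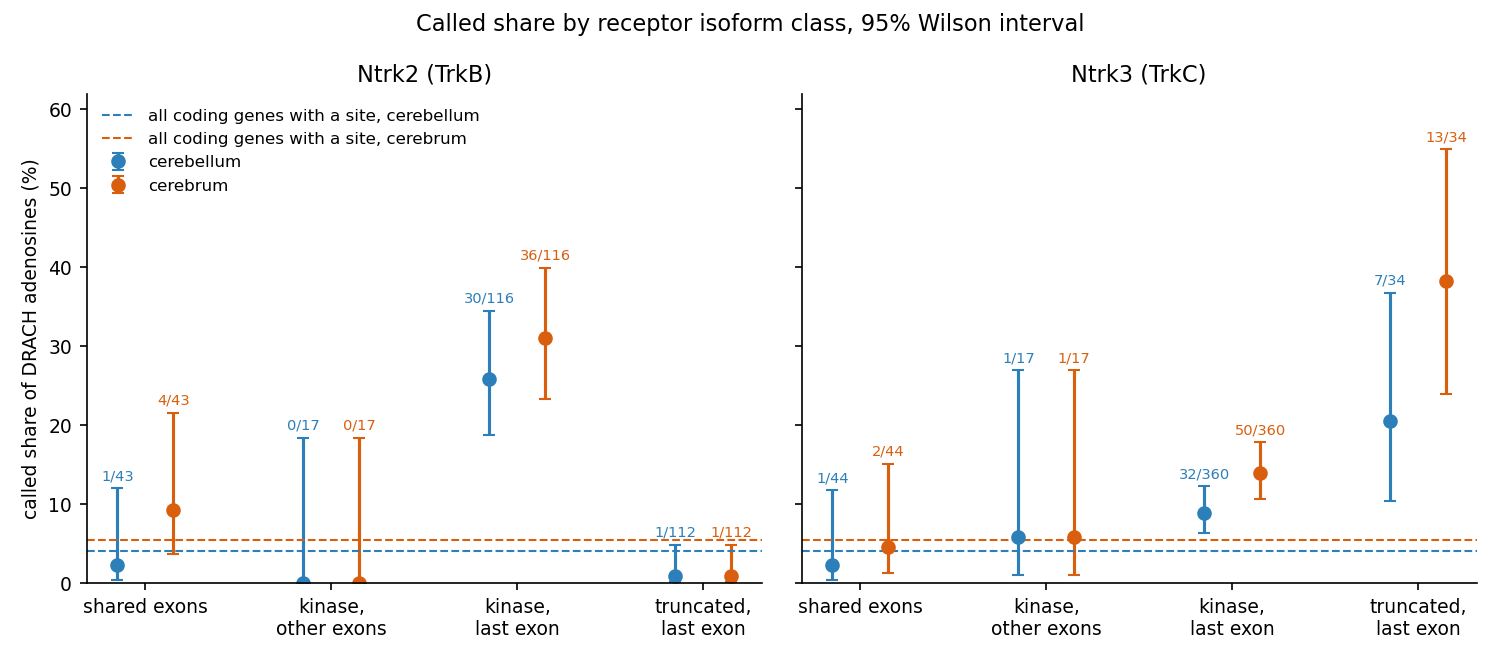
Called share of DRACH adenosines in percent by receptor isoform class, with 95% Wilson intervals, in *Ntrk2* (left) and *Ntrk3* (right). Blue points are the cerebellum and orange points the cerebrum, the numbers give called over all DRACH adenosines, and dashed lines mark all coding genes with a site (4.02% and 5.4%). The *Ntrk2* kinase last exon stands at 25.9% and 31.0% and the truncated last exon at 0.893%, whereas both last exons of *Ntrk3* lie above the dashed lines.

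**Figure D4:**
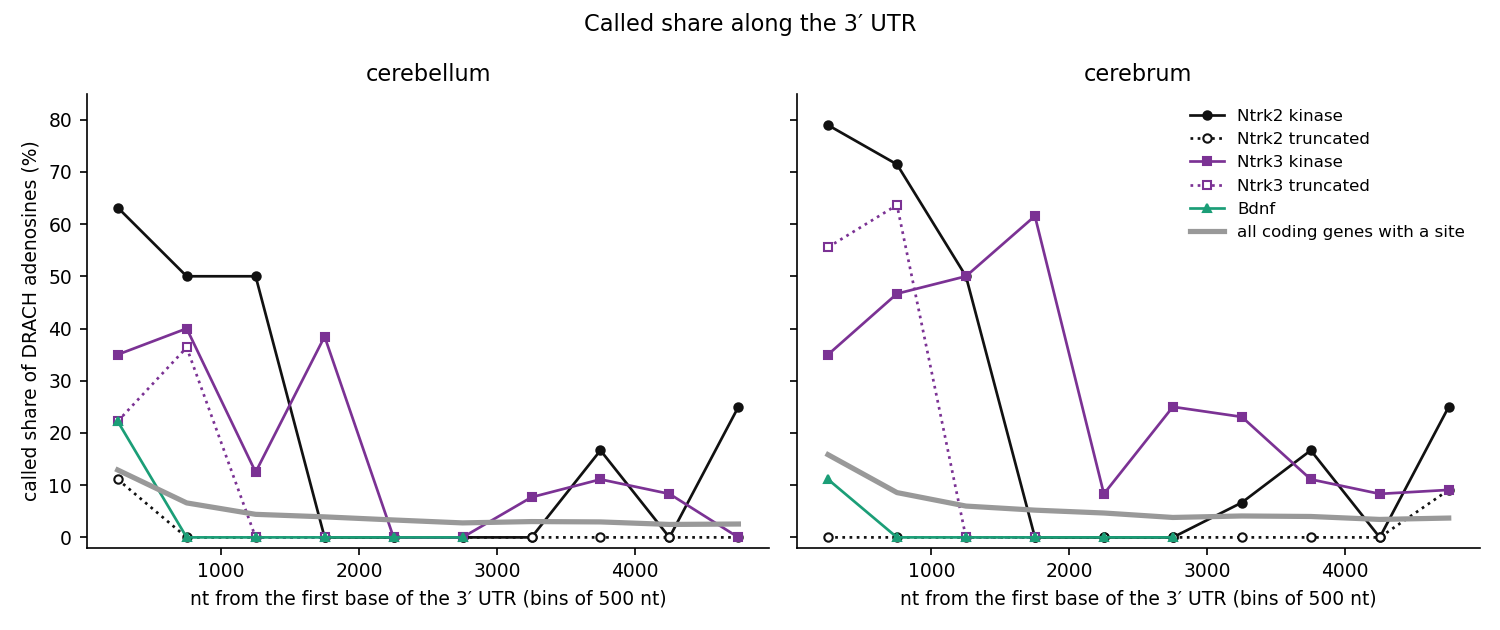
Called share of DRACH adenosines in percent, in bins of 500 nt from the first base of the 3′ UTR up to 5000 nt, in the cerebellum (left) and the cerebrum (right). Filled symbols are kinase ends and *Bdnf*, open symbols truncated ends, and the thick grey line all coding genes with a site, without intervals, since single bins hold few adenosines of a gene. The *Ntrk2* kinase line starts at 63.2% and 78.9% and is at 0% between 1500 and 3000 nt. The grey line falls from 12.9% and 15.8% to 2.77% and 3.82% in the bin from 2500 to 3000 nt.

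By region, 77.8% (69.8 to 84.2) of the cerebellum sites of the 5 genes and 56.8% (50.9 to 62.6) of the cerebrum sites lay in 3′ UTRs, against 41.7% and 34.4% of the sites in all coding genes. The coding sequence held 3.17% and 5.17% of the sites, against 30.2% and 27.3%. Among 3′ UTR DRACH adenosines, 9.51% (7.62 to 11.8) and 13.2% (10.98 to 15.8) were called, with backgrounds of 6.28% and 8.3%. In 5′ UTRs, 2 and 5 of 82 were called, 2.44% (0.671 to 8.46) and 6.10% (2.63 to 13.5), with backgrounds of 2.48% and 3.21%. In the coding sequence, 1.54% (0.525 to 4.42) and 3.08% (1.42 to 6.55) were called, 3 and 6 of 195, with backgrounds of 4.66% and 6.32%. The upper end of the cerebellum interval lay below its background, and the cerebrum interval included its own. In internal exons up to 400 nt long, 0 of 126 DRACH adenosines were called in either library (95% interval 0 to 2.96%), while over all coding genes with a site 0.558% and 0.967% were. Within 100 nt of a splice junction, 2 of 168 were called in each library, 1.19% (0.327 to 4.24), against 1.05% and 1.63% over all such genes. Within 200 nt of a stop codon, 15 and 20 of 84 were called, 17.9% (11.1 to 27.4) and 23.8% (16.0 to 33.9), against 11.3% and 14.1%. In the cerebellum this interval only just included the value for all coding genes with a site.

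Of the cerebellum sites of the 5 genes, 62.7% (54.0 to 70.6) had a DRACH 5-mer, and over all sites of the library 62.2% did. In the cerebrum 43.9% (38.1 to 49.9) did, and over all sites 46.8%. Sites listed in both libraries numbered 79, of which 66 were DRACH sites, 83.5% (73.9 to 90.1), with a background of 82.8%. Of the cerebellum sites, 62.7% were listed in the cerebrum too, with a background of 60.8%, and of the cerebrum sites 29.2% (24.1 to 34.8) were listed in the cerebellum, with a background of 25.6%. For DRACH sites these shares were 83.5% (73.9 to 90.1) and 55.5% (46.5 to 64.1), with backgrounds of 81% and 45.3%. In *Ntrk2* 29 of 43 cerebrum DRACH sites were also listed in the cerebellum, 67.4% (52.5 to 79.5), and in *Ntrk3* 35 of 72, 48.6% (37.4 to 59.9). The 64 DRACH sites of these genes that both libraries listed were in the last exon except for the pair in 5′ UTR exons.

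The introns of *Ntrk2* and *Ntrk3* held 20 cerebellum and 88 cerebrum sites, and those of the other 3 genes held 0. Of these, 1 and 8 were DRACH sites, 5% and 9.09%, against 29.0% and 21.7% of the intron sites of all coding genes. In these introns 0 sites were listed in both libraries. Over all coding genes, whose intron sites were more often DRACH sites, 26.8% of the cerebellum and 8.40% of the cerebrum intron sites were also listed in the other library. Of the intron sites of *Ntrk2*, 3 of 6 in the cerebellum and 4 of 30 in the cerebrum lay on exons of RefSeq models, and of those of *Ntrk3*, 0 of 14 and 0 of 58. The number of DRACH sites in the cerebrum for each one in the cerebellum was 1.303 in *Ntrk2*, 1.71 in *Ntrk3* and 1.51 over the 5 genes, against 1.79 over all sites.

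Other genes of the pathway were taken from a list of 56 genes for ligand processing, sorting, co-receptors and signalling downstream of Trk and p75. Of these, 49 had a site in the cerebellum and 52 in the cerebrum, while 9047 and 12605 of 21951 coding genes did. Over the genes of the list with a site, the median called share was 3.90% and 6.67%, against medians of 2.54% and 3.21% over all coding genes with a site. *Ntf5*, which encodes another TrkB ligand, and *Shc1*, which encodes a Trk adaptor, had 0 sites in both libraries. *Sort1*, which encodes sortilin, a co-receptor and sorting receptor of precursor neurotrophins, had 10 of 158 DRACH adenosines called in the cerebellum and 8 in the cerebrum, 6.33% and 5.06%.

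The highest called shares of the list in the cerebrum were those of *Rtn4r* (37.5%, 12 of 32) and *Lingo1* (33.3%, 26 of 78), which encode the Nogo receptor and its partner in the complex with p75. Both had 0 sites in the cerebellum. They were followed by *Crk* (30.1%, 28 of 93) and *Crkl* (22.8%, 26 of 114), adaptors between Trk receptors and small GTPases, which had 24.7% and 19.3% called in the cerebellum. The called shares of other ligand and receptor families gave a range for the 5 genes. The 8 Neuregulin and ErbB receptor genes had pooled shares of 2.02% (1.38 to 2.94) and 3.88% (2.95 to 5.07), below those of the 5 genes without overlap of the intervals. The 14 Eph receptor genes had 5.71% (4.79 to 6.80) and 9.42% (8.23 to 10.8), and these intervals overlapped those of the 5 genes.

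The genes whose sites were most alike in region and library were found by the Euclidean distance between shares of sites over 4 regions and 3 library classes, among 2917 coding genes with at least 20 sites and over 2 libraries. For *Bdnf* these were *Camk2a* (distance 0.0858) and *Agpat3* (0.111), with 25 of 27 and 29 of 30 sites in the 3′ UTR. For *Ntrk2* they were *Rps6ka3* (0.0682) and *Fam49b* (0.0896), and for *Ntrk3* *Ccny* (0.0629) and *Pan3* (0.0663).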

How the data were processed

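GLORI data of 2 libraries were used, 1 from the cerebellum and 1 from the cerebrum. Per the study's methods, the authors mapped reads to mm10 and PWK-mm10, called sites with GLORI-tools v.1.0, united both sets and applied minimum thresholds of 0.1 (rate) and 8 (reads). The unit of the deposited files is a genomic position with its strand. They hold 0 methylation rates, so depth and precision per site are unknown and no difference in level was tested. Transcript assignment used GENCODE M21 on GRCm38, not the release the study names, and a site was assigned to the longest coding isoform that covers it. Kinase transcripts were the coding transcripts that end at the stop codon of the longest coding sequence, and truncated transcripts the others. DRACH status was read with the centre as A. The background was all coding genes with a site in that library. Expected numbers used the share called for each of 18 DRACH 5-mers per region, without regard to the distance from the stop codon.

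The members, gene lists and comparisons were chosen with earlier results of these data known. Sites named one by one were the first 8 DRACH sites per gene listed in both libraries, kinase-specific or truncated-specific exons first and then in 5′ to 3′ order. Single DRACH sites of *Bdnf*, *Ntf3*, *Ngfr* and the truncated last exon of *Ntrk2*, and the pair with shared letters, were named after their values were seen. Of the pathway list, the 4 genes with the highest called share in the cerebrum among those with at least 10 DRACH adenosines, *Ntf5* and *Sort1*, and genes at 0 sites in both libraries were named, and results for some items of the lists are not reported here. The assignment of regions was tested on planted positions of known region, and the search for DRACH adenosines against a second search. The coverage of the Wilson interval was tested on simulated draws. The other steps were not tested in this way. Python 3.11.15, numpy 2.4.6, scipy 1.17.1, pysam 0.24.0, samtools 1.23.1 and matplotlib 3.10.9 were used. Sequences are from GRCm38.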

Additional observations from a re-analysis of the deposited data

How the results depend on the processing

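Of the alternatives run on the main results, 35 values stayed within the 95% interval of the main value or of a like size and 28 moved outside it. With DRACH sites only, the shared share became 83.5% and 55.5% (main 62.7% and 29.2%, cerebellum and cerebrum), the 3′ UTR share 92.4% and 84.0% (77.8% and 56.8%) and the intron share 1.27% and 6.72% (15.9% and 32.5%). In all coding genes, 49.9% and 46.4% of the DRACH sites lay in 3′ UTRs and 9.87% and 13.2% in introns. The DRACH share became 45.2% and 35.4% with RRACH, and 83.5% in sites listed in both libraries (62.7% and 43.9%). Over all sites it was 51.2% and 38.5% with RRACH, and 82.8% in sites listed in both libraries. With exons of the longest coding isoform only, the called share of the 5 genes became 8.54% and 12.005% (6.07% and 8.75%) and that of the pathway list, pooled, 5.63% and 9.57% (4.399% and 7.46%). The background rose too under this setting, to 5.52% and 7.30% (4.02% and 5.40%). A background of genes with at least 10 sites had 7.63% and 8.44% called (4.02% and 5.40%), above the 5 genes in the cerebellum (6.07%) and close to them in the cerebrum (8.75%). Within 200 nt of a splice junction the called share in the cerebrum was 5.41% (1.19% within 100 nt). Over all coding genes with a site it was 3.36% (1.63% within 100 nt).

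With DRACH adenosines within 50 nt of another listed site, an alternative added after the data were seen, the *Ntrk2* kinase last exon had 53.5% and 56.9% called (25.9% and 31.0%) and the truncated one 33.3%, from 3 adenosines, and 0% (0.893%). This subset is chosen by the listed sites themselves, which were mostly DRACH sites in the kinase exon and, in the cerebrum, mostly others in the truncated exon, so it is no like-for-like comparison of the exons. The *Ntrk3* kinase last exon had 19.2% and 30.2% (8.89% and 13.9%), and the truncated one 55.6% in the cerebrum (38.2%). Counting only sites listed in both libraries, the *Ntrk2* truncated last exon had 0% in each, and in the cerebrum the *Ntrk3* kinase and truncated last exons had 7.78% and 17.6%. The cause of these shifts was not tested.

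No paired analysis was possible because there was 1 library per tissue. The split of *Bdnf* by transcripts with a short 3′ UTR could not be made, since all 11 GENCODE M21 transcripts end at the same base, and the first 500 nt were used, chosen after the data were seen. Depth limits every comparison: the absence of a site cannot be told apart from low coverage, and the libraries list different numbers of sites.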

Other observations

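On the strand opposite to the 5 genes, and in the 5000 nt beyond their annotated 3′ ends on their own strand, 0 sites were listed in either library. One cerebrum site of *Ntrk3* lay on an exon of *Gm44607* on the same strand. In the truncated 3′ UTR of *Ntrk3*, the cerebrum listed 3 GGACC sites within 26 nt, at 830, 840 and 856, and 0 of these were listed in the cerebellum. They were picked after their values were seen. Over all sites, 45.3% of the cerebrum DRACH sites were listed in the cerebellum too. In 3′ UTRs of all coding genes with a site, 9.06% of GGACC adenosines were called in the cerebellum and 13.1% in the cerebrum.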
